A study of Mus musculus with 12 samples.

Results

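Collagen genes were taken from the probe annotation of a mouse Illumina bead array by their symbol, Col followed by a number, the letter a and a number, and 41 of the 19057 genes named there met that rule. By class these were 11 fibrillar collagens, 6 of the basement membrane, 5 beaded filament collagens and 19 others. A probe counted as above background on an array where its detection p was under 0.05. Of the 41 genes, 25 had a probe above background on at least 3 of the 12 arrays and were tested, among 10653 genes tested in all.

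The cells were C2C12, an established mouse myoblast line, and RNA of 4 groups was hybridised to 3 arrays each. The antimiR cells were given antimiR-206, an inhibitor of the microRNA miR-206, and cultured for 48 h. The Day2 cells spent 48 h in differentiation medium, in which horse serum replaces the fetal serum of growth medium. The mimic cells were given a small RNA that mimics miR-206 and cultured for 24 h, and the Day1 cells spent 24 h in differentiation medium. A lipid transfection protocol is listed for every sample. The labels name no control oligonucleotide for Day1 or Day2 and no medium for the treated cells. They describe the Day1 and mimic cells as undifferentiated and the Day2 and antimiR cells as starting to differentiate. Replicates are numbered but not said to be separate cultures, so each p-value reflects only how far these samples vary among themselves, and that variation may be technical.

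Collagens are triple-helical proteins of the extracellular matrix. Fibrillar collagens build cross-linked fibrils, type IV chains build the sheet-like network of basement membranes, and type VI chains build beaded microfilaments around cells. In skeletal muscle these layers tie each fibre to its neighbours and to tendon, and inherited defects of type VI chains cause muscular dystrophies. Prolyl and lysyl hydroxylases and chaperones fold the chains in the endoplasmic reticulum, proteases trim the propeptides outside the cell, and lysyl oxidases cross-link the fibrils. MiR-206 is a skeletal muscle microRNA that is known to favour differentiation of myoblasts. Factors of the MyoD family bind the E-box, CANNTG.

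The mature miR-206-3p, after which both the mimic and the antimiR are named, is shown with its seed, bases 2 to 8, in capitals. The labels do not give the sequences of the oligonucleotides used. It lies at chr1:20679055-20679076 on the plus strand (RefSeq, GRCm38.p6).
mmu-miR-206-3p: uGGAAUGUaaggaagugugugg

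The 250 bases before the RefSeq start of 5 collagen genes (GRCm38.p6) are shown because these genes had some of the largest differences between groups. Col3a1 stands alone, and the others form pairs of partner chains. Col1a1 is not in the RefSeq promoter table and is not shown. Col6a1 and Col6a2 passed in the same direction in 3 of the 4 comparisons. Col8a1 and Col8a2 both rose in Day2 against Day1, but of this pair only Col8a1 passed in antimiR against Day2. Capitals mark each CANNTG on either strand; this motif reads the same on both.
Col6a1, chr10:76726045-76726294, minus strand: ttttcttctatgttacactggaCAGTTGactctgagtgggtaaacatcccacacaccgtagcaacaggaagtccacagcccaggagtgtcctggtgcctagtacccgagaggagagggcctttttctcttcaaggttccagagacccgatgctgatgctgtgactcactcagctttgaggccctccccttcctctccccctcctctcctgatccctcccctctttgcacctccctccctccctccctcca
Col6a2, chr10:76623631-76623880, minus strand: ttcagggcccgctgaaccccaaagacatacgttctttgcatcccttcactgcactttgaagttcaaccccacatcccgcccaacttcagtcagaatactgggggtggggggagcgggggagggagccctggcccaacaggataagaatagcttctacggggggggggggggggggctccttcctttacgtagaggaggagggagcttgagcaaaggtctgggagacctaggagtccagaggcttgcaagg
Col3a1, chr1:45311288-45311537, plus strand: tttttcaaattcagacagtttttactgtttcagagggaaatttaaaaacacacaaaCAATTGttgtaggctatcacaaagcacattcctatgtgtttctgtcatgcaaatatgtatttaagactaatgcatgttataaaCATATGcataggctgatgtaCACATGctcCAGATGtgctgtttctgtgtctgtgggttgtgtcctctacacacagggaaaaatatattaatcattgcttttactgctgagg
Col8a1, chr16:57754738-57754987, minus strand: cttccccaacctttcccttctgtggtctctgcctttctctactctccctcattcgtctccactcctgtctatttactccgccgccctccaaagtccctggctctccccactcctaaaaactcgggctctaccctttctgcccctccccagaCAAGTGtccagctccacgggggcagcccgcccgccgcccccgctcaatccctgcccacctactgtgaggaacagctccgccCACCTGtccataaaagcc
Col8a2, chr4:126286544-126286793, plus strand: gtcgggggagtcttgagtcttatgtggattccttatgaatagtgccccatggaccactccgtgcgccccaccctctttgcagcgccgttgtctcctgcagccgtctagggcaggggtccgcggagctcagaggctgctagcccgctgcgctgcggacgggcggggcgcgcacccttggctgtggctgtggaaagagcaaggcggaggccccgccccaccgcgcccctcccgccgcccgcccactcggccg

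Col3a1 held 4 such motifs, whose first bases lie at −194, −111, −91 and −82 from the start. Col8a1 held 2, at −99 and −18, and Col6a1 held 1, at −228. None was present in the windows of Col6a2 and Col8a2, and no motifs overlapped. Of the 19 tested collagen genes in the RefSeq promoter table, 9 held at least 1 CANNTG in any of their windows. Counted by window and not by gene, 66.2% of all 32851 promoter windows of that length held at least 1. A match is a string of letters and not a measured binding site. On the same assembly Col6a2 and Col6a1 lie 85.2 kb apart on chromosome 10 and Col3a1 and Col5a2 lie 24.6 kb apart on chromosome 1.

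Before normalization the arrays had a mean raw intensity between 161 (Day2 replicate 1) and 477 (antimiR replicate 2) and a median between 49.5 and 63.2, with 36.7% to 40.3% of probes above background. Within a group the mean spanned 274 to 477 in antimiR, 161 to 418 in Day2, 224 to 401 in mimic and 221 to 466 in Day1. Mimic replicate 1 stood apart from its group: its correlation across genes averaged 0.971 with the other mimic arrays and 0.993 with Day1, and those other mimic arrays correlated at 0.995 with each other. Results for the mimic are therefore also given without it. The myoblast genes Myod1, Des and Cdh15 were above background on all 12 arrays, while Myf5 and Pax7 were not above background on any. The summed linear level of 5 early myotube markers was 189 to 231 in antimiR, 41915 to 51923 in Day2, 157 to 239 in mimic and 138 to 207 in Day1. Day2 thus differed from the other groups in myotube markers as well as in collagens. How far the collagen values move with them was not tested. Each measurement is from bulk RNA, in which fewer cells of a type and less RNA per cell cannot be told apart.

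Markers of cells that are known to make collagen were also read. Of 7 fibroblast markers, Thy1 and Tcf21 were above background on 0 arrays, Pdgfra and Cd34 on all 12, and the list's summed level was 406 to 456 in antimiR, 427 to 551 in Day2, 255 to 391 in mimic and 205 to 255 in Day1. Pdgfra, a growth factor receptor of mesenchymal cells, was 2.06 higher on the log2 scale in Day2 than in Day1 (SE 0.31, limma adjusted p = 7.47e-05) and 1.71 higher in antimiR than in Day1 (adjusted p = 0.00522). Of the 3 fibroblast markers tested, it was the only 1 to pass in either comparison, where 28.3% and 12.9% of all genes rose. Cd34 averaged 6.17 in antimiR, 5.80 in Day2 and 5.79 in Day1, and Osr1 4.87, 4.59 and 4.43 in the same order. The osteoblast genes Sp7, Ibsp and Dmp1 were above background on 0 arrays, Bglap2 on all 12, Bglap on 6 and Alpl on 3. The 6 osteoblast markers summed to 219 to 302 in antimiR, 413 to 529 in Day2, 182 to 276 in mimic and 184 to 227 in Day1. Of the 3 tested, 2 rose in Day2 against Day1 by limma (28.3% of all genes) and 2 fell in antimiR against Day2 (24.8%). Bglap2 averaged 7.05 in antimiR, 8.37 in Day2, 6.97 in mimic and 6.50 in Day1, in log2 normalized intensity. The cartilage genes Acan, Matn1, Matn3, Hapln1 and Cnmd were above background on 0 arrays, and Comp on 1. Sox9, a transcription factor of cartilage and other tissues, was above background on all 12 arrays. It was 0.94 higher in antimiR than in Day2 (SE 0.13, adjusted p = 3.32e-05) and 0.97 higher in mimic than in Day1 (SE 0.13, adjusted p = 0.00213). Of the 6 endothelial markers 0 were tested, and of the 4 macrophage markers 2 were tested and 0 passed in any comparison. The part of these markers in the collagen results was not tested.

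Below that filter were 16 members, which were not tested. Of these, 10 were above background on 0 arrays: Col4a3, Col4a4, Col6a4, Col6a6, Col9a2, Col10a1, Col13a1, Col19a1, Col23a1 and Col28a1. Col6a5, Col9a3, Col15a1 and Col24a1 were above background on 1 array each, and Col4a6 and Col9a1 on 2. Among the 25 tested genes were 10 fibrillar, 3 basement membrane, 2 beaded filament and 10 other collagens, and 14 of the 25 were above background on all 12 arrays. The 5 fibrillar collagens on all 12 arrays were Col1a1, Col1a2, Col3a1, Col5a1 and Col5a2.

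Across the family, more collagen genes were higher than lower in Day2 against Day1, and more were lower than higher in antimiR against Day2. Of the 25 tested genes, 13 rose in Day2 against Day1 and 2 fell at a limma adjusted p under 0.05, where 28.3% of all genes tested rose and 28.9% fell. Their median log2 difference was 0.46, against −0.02 over all genes. For antimiR against Day2, 2 rose and 9 fell, where 26.4% of all genes rose and 24.8% fell, with a median of −0.25 against 0.03. For antimiR against Day1, 7 rose and 1 fell, where 12.9% of all genes rose and 9.86% fell, with a median of 0.15 against 0.01. For mimic against Day1, 3 rose and 0 fell, where 4.42% of all genes rose and 4.13% fell, with a median of 0.16 against 0.00. In that comparison 9 of the 25 members had an unadjusted p under 0.05, as had 3155 of the 10653 genes, and of the 9 only Col7a1 was lower in mimic. No array of one group reached into the range of the other for 13 higher and 2 lower members in Day2 against Day1, where this held for 32.3% and 33.6% of all genes. For antimiR against Day2 the counts were 3 higher and 9 lower (32.3% and 29.5% of all genes), for antimiR against Day1 11 higher and 1 lower (25.1% and 23.1%), and for mimic against Day1 6 higher and 0 lower (11.5% and 13.1%). These comparisons share arrays, since Day1 is the reference in 3 of them and Day2 stands in 2, so their values are given side by side and not as separate support.

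The counts moved with the scaling of the arrays. Scaled to a common median instead of quantile-normalized, 8 members rose and 1 fell in Day2 against Day1, 2 rose and 4 fell in antimiR against Day2, 5 rose and 0 fell in antimiR against Day1, and 0 changed in mimic against Day1. Over all 10653 genes that scaling gave 981 higher and 900 lower in Day2 against Day1, against 3010 and 3084 with quantile normalization. It gave 1160 higher and 630 lower in antimiR against Day2 (2814 and 2647 with quantile normalization), 156 and 41 in antimiR against Day1 (1376 and 1050), and 9 and 16 in mimic against Day1 (471 and 440). That scaling shifted the median of all genes to −0.12 in Day2 against Day1, 0.31 in antimiR against Day2 and 0.18 in antimiR against Day1.

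**Figure D1:**
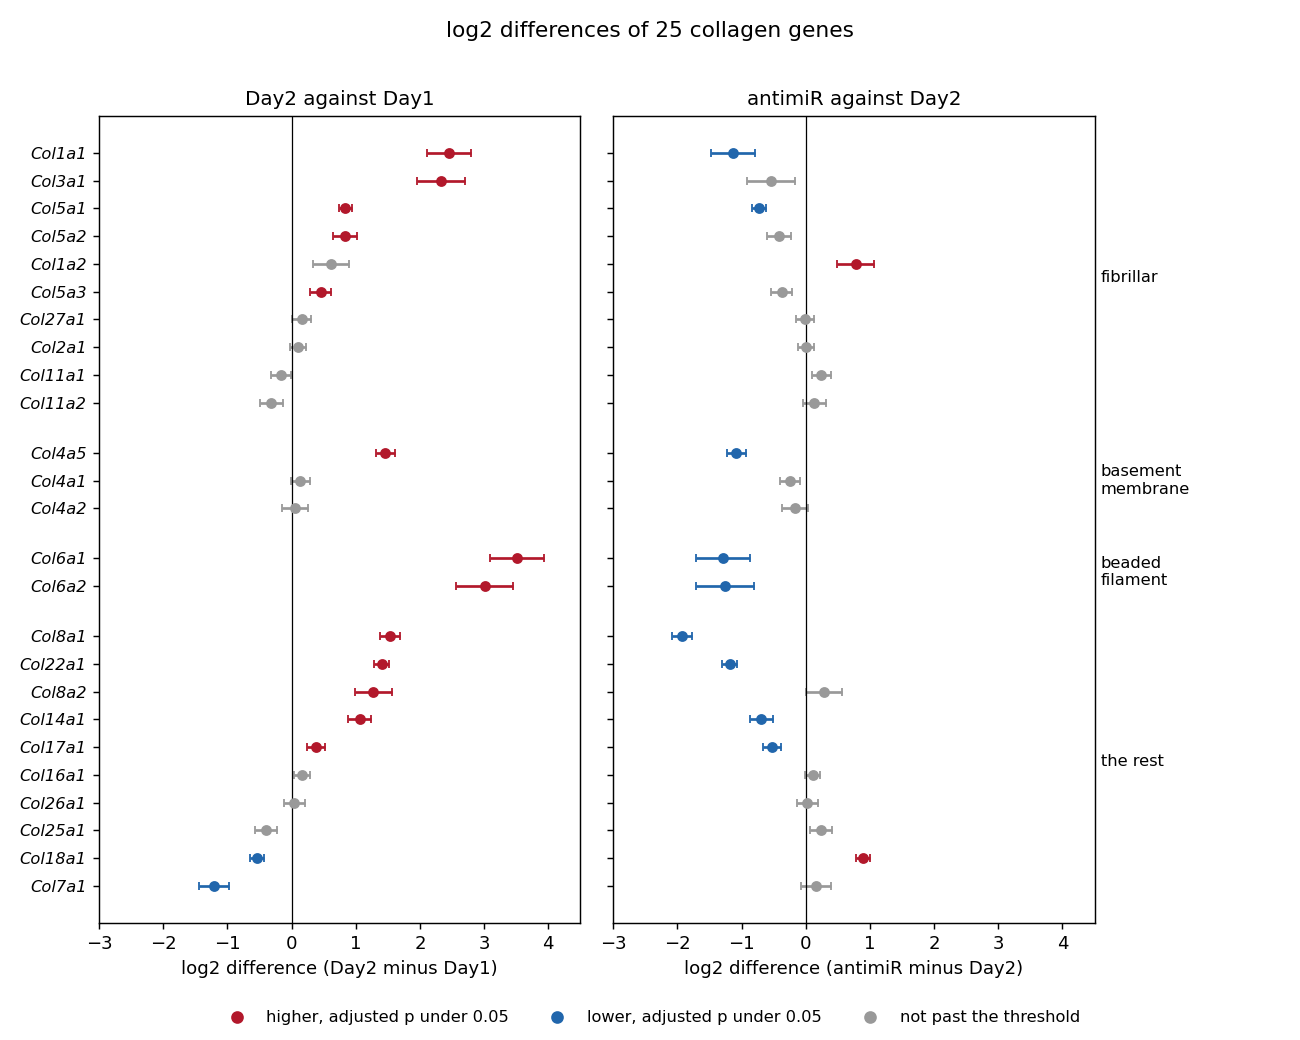
Log2 difference of each of the 25 tested collagen genes for Day2 minus Day1 (left) and antimiR minus Day2 (right), with the limma standard error as bars and genes grouped by class. Both panels use the Day2 arrays. Col6a1 (3.51) and Col6a2 (3.01) stand farthest to the right in the left panel and Col8a1 (−1.93) farthest to the left in the right panel.

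The type VI genes Col6a1 and Col6a2 differed most between Day2 and Day1 among the tested collagens. They encode chains that assemble in the same type VI molecule. Col6a3 was not among the 41 members. Col6a1 had log2 normalized intensities of 11.53, 10.90 and 10.89 in antimiR, 12.32, 12.46 and 12.40 in Day2, 9.10, 11.36 and 11.08 in mimic, and 9.19, 8.80 and 8.66 in Day1. Every Day2 array was above every array of the other groups, every antimiR array was above every Day1 array, and mimic replicate 1 lay within the Day1 values. Col6a1 was 11.4-fold higher in Day2 than in Day1 (log2 difference 3.51, SE 0.42, limma adjusted p = 8.89e-06). It was 2.44-fold lower in antimiR than in Day2 (−1.28, SE 0.42, adjusted p = 0.0211) and 4.67-fold higher in antimiR than in Day1 (2.22, adjusted p = 0.00567).

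Col6a2 had 8.62, 7.84 and 8.06 in antimiR, 8.96, 9.73 and 9.61 in Day2, 6.41, 8.49 and 8.67 in mimic, and 6.53, 6.22 and 6.52 in Day1, in log2 normalized intensity. The order of the groups was as for Col6a1, and again mimic replicate 1 lay among the Day1 arrays. Col6a2 was 8.05-fold higher in Day2 than in Day1 (3.01, SE 0.45, limma adjusted p = 5.93e-05), 2.39-fold lower in antimiR than in Day2 (−1.26, SE 0.45, adjusted p = 0.0306) and 3.37-fold higher in antimiR than in Day1 (1.75, adjusted p = 0.0161). A second probe of Col6a2 rose by 0.66 in Day2 against Day1 (adjusted p = 0.00223). It had a difference of −0.00 for antimiR against Day2 (adjusted p = 0.983). This probe was close to background: it averaged 4.59 in Day1, 5.26 in Day2 and 5.25 in antimiR, and was above background on 9 arrays. The brighter Col6a2 probe averaged 6.42, 9.43 and 8.17 in the same order. The second Col6a1 probe rose by 3.06 and fell by 1.17 in these comparisons. With all probes of a gene averaged, the Col6a2 difference was 1.84 in Day2 against Day1 and −0.63 (adjusted p = 0.0882) in antimiR against Day2.

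With any 1 array left out, the antimiR against Day2 difference stayed between −1.50 and −1.18 for Col6a1 and between −1.49 and −1.09 for Col6a2, but both calls were lost without certain arrays. For Col6a1 the adjusted p was 0.0567 without Day2 replicate 2, 0.0506 without Day2 replicate 3, 0.0696 without antimiR replicate 2 and 0.0701 without antimiR replicate 3. For Col6a2 it was 0.0999, 0.0858, 0.105 and 0.0819 without those same arrays. With median scaling Col6a1 had −0.61 (adjusted p = 0.472) and Col6a2 −0.78 (adjusted p = 0.359). With no detection filter the adjusted p of Col6a2 was 0.0526, and with 75th percentile scaling Col6a1 had −0.92 (adjusted p = 0.0573). For antimiR against Day1 the Col6a2 call was lost without Day1 replicate 2 (adjusted p = 0.0649), Day1 replicate 3 (0.057) or antimiR replicate 1 (0.0779).

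**Figure D2:**
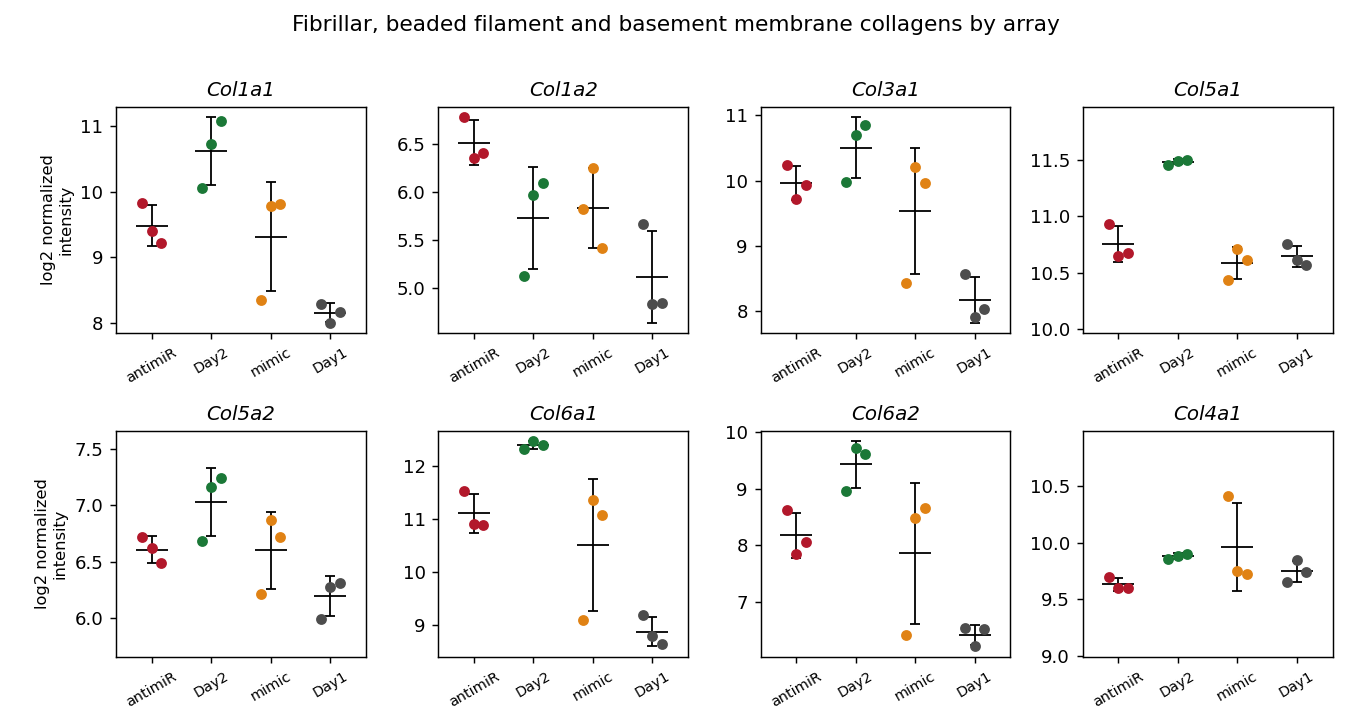
Log2 normalized intensity of 8 collagen genes on each array, with the mean and SD of 3 arrays as lines, for antimiR, Day2, mimic and Day1 from left to right. The Day2 arrays of Col6a1 sit between 12.32 and 12.46, above all others, and mimic replicate 1 sits close to the Day1 arrays for Col1a1, Col3a1, Col6a1 and Col6a2.

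Of the 10 fibrillar collagens tested, 5 rose in Day2 against Day1 and 0 fell, by limma, where 28.3% of all genes rose and 28.9% fell. An unadjusted p under 0.05 was found for 5 of the 10, and for 6517 of the 10653 genes. In antimiR against Day2, 1 rose and 2 fell, where 26.4% of all genes rose and 24.8% fell. The median log2 difference of the 10 was 0.54 in Day2 against Day1 and −0.19 in antimiR against Day2. The genes that rose in Day2 were Col1a1, Col3a1 and the type V genes Col5a1, Col5a2 and Col5a3. Col1a1, the alpha 1 chain of type I collagen, had log2 normalized intensities of 9.83, 9.40 and 9.22 in antimiR, 10.06, 10.73 and 11.07 in Day2, 8.36, 9.78 and 9.81 in mimic, and 8.30, 8.01 and 8.18 in Day1. Day2 lay above antimiR and antimiR above Day1 with no overlap. Col1a1 was 5.47-fold higher in Day2 than in Day1 (2.45, SE 0.34, limma adjusted p = 2.95e-05), 2.19-fold lower in antimiR than in Day2 (−1.13, SE 0.34, adjusted p = 0.0122) and 2.5-fold higher in antimiR than in Day1 (1.32, adjusted p = 0.016). The antimiR against Day2 call of Col1a1 was lost without Day2 replicate 3 (−0.91, adjusted p = 0.0608), without antimiR replicate 3 (adjusted p = 0.0519) and with median scaling (−0.59, adjusted p = 0.5). The antimiR against Day1 call was lost without Day1 replicate 2 (0.0648), Day1 replicate 3 (0.0596) or antimiR replicate 1 (0.0777), and with median scaling (0.109).

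Col3a1 encodes the chain of type III collagen, which is found in fibrils together with type I. Its log2 normalized intensities were 10.25, 9.72 and 9.93 in antimiR, 9.98, 10.70 and 10.85 in Day2, 8.43, 10.21 and 9.96 in mimic, and 8.57, 7.91 and 8.04 in Day1. The antimiR and Day2 values overlapped, and both lay above Day1. Col3a1 was 5.04-fold higher in Day2 than in Day1 (2.33, SE 0.37, limma adjusted p = 0.000114) and 3.46-fold higher in antimiR than in Day1 (1.79, SE 0.37, adjusted p = 0.00794). For antimiR against Day2 the difference was −0.54 (SE 0.37, adjusted p = 0.25). It passed without mimic replicate 1 (adjusted p = 0.0263), with only the arrays compared (0.0392) and with array weights (−0.82, adjusted p = 0.000299), and was −0.01 (adjusted p = 0.995) with median scaling. A second Col3a1 probe passed in neither of these comparisons with Day1. It had 0.06 in Day2 against Day1 (adjusted p = 0.821) and 0.52 in antimiR against Day1 (adjusted p = 0.093). The brighter probe averaged 8.17 in Day1, 10.51 in Day2 and 9.96 in antimiR. The second averaged 4.63, 4.69 and 5.15 in the same order and was above background on 9 arrays. In mimic it averaged 5.39, which was 0.76 above Day1 (limma adjusted p = 0.0463), where the brighter probe averaged 9.54. The brighter probe was thus highest in Day2 and the second in mimic. The second probe lay close to background, and why the 2 probes order the groups differently was not tested. That probe had the opposite sign in antimiR against Day2, 0.46 (adjusted p = 0.0873). With both probes averaged the Col3a1 difference was 1.20 in Day2 against Day1 and 1.16 in antimiR against Day1, which both passed, and −0.04 in antimiR against Day2 (adjusted p = 0.914).

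Col1a2, the alpha 2 chain of type I collagen, was highest in antimiR. It had log2 normalized intensities of 6.78, 6.35 and 6.40 in antimiR, 5.13, 5.97 and 6.09 in Day2, 5.82, 6.25 and 5.42 in mimic, and 5.66, 4.84 and 4.84 in Day1. The antimiR arrays were above every Day2, mimic and Day1 array, and Day2 and Day1 overlapped. Col1a2 was 2.63-fold higher in antimiR than in Day1 (1.40, SE 0.29, limma adjusted p = 0.00754) and 1.72-fold higher in antimiR than in Day2 (0.78, SE 0.29, adjusted p = 0.0355), and its difference for Day2 against Day1 was 0.61 (SE 0.29, adjusted p = 0.084). The Col1a2 call for antimiR against Day2 was lost without Day2 replicate 1 (0.48, adjusted p = 0.18), antimiR replicate 1 (adjusted p = 0.119), antimiR replicate 2 (0.0534) or antimiR replicate 3 (0.0611), and with no detection filter (0.074). In the authors' processed values the antimiR against Day1 difference was 0.60 and passed. The Day2 against Day1 difference passed without Day1 replicate 1 (0.89, adjusted p = 0.0206) or Day2 replicate 1 (0.92, adjusted p = 0.0145).

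Type V chains are minor components of type I fibrils and are known to limit their diameter. Col5a1 had log2 normalized intensities of 10.94, 10.65 and 10.67 in antimiR, 11.46, 11.49 and 11.50 in Day2, 10.44, 10.71 and 10.62 in mimic, and 10.75, 10.61 and 10.57 in Day1. Day2 stood above all other arrays, which overlapped among themselves. Col5a1 rose by 0.84 in Day2 against Day1 (SE 0.10, limma adjusted p = 1.15e-05) and fell by 0.73 in antimiR against Day2 (SE 0.10, adjusted p = 5.08e-05), with 0.11 for antimiR against Day1 (adjusted p = 0.49). With median scaling these became 0.52 (adjusted p = 0.582) and −0.14 (adjusted p = 0.892), and with 75th percentile scaling the second adjusted p was 0.0533.

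Col5a2 had 6.72, 6.62 and 6.48 in antimiR, 6.68, 7.16 and 7.24 in Day2, 6.21, 6.87 and 6.72 in mimic, and 5.99, 6.28 and 6.31 in Day1. Day2 and antimiR both lay above Day1, and Day2 overlapped antimiR and mimic. Col5a2 rose by 0.83 in Day2 against Day1 (SE 0.19, limma adjusted p = 0.0017, and 0.358 with median scaling), and its second probe rose by 1.06 (adjusted p = 1.67e-05). For antimiR against Day2 it had −0.42 (adjusted p = 0.0774), while its second probe fell by 0.70 (adjusted p = 0.000769) and both probes averaged gave −0.56 (adjusted p = 0.00473). The Col5a2 difference also passed without Day2 replicate 1 (−0.59, adjusted p = 0.021) or mimic replicate 1 (adjusted p = 0.0209), with only the arrays compared (0.0366) and with array weights (−0.57, adjusted p = 0.000227), and was −0.04 (adjusted p = 0.964) with median scaling. Col5a3 had 4.75, 4.51 and 4.74 in antimiR, 4.63, 5.13 and 5.36 in Day2, 4.68, 4.64 and 4.53 in mimic, and 4.59, 4.70 and 4.45 in Day1. Its Day2 and Day1 values overlapped, and neither Day2 replicate 1 nor any Day1 array was above background. Col5a3 rose by 0.46 in Day2 against Day1 (SE 0.16, limma adjusted p = 0.0283). The Col5a3 call was lost without Day1 replicate 1 (adjusted p = 0.0601), Day1 replicate 3 (0.101), Day2 replicate 2 (0.0854) or Day2 replicate 3 (0.138), and with median (0.0519) or 75th percentile scaling (0.0653).

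The remaining fibrillar genes were above background on 5 (Col2a1) to 11 (Col11a2) of the 12 arrays and did not pass in any of the 4 comparisons. Col2a1, the cartilage collagen, Col11a1 and Col11a2, its fibril partners, and Col27a1 ranged from 4.36 to 5.53 in log2 normalized intensity over all arrays. Their differences for Day2 against Day1 ran from −0.32 in Col11a2 (limma adjusted p = 0.15) to 0.16 in Col27a1 (adjusted p = 0.383).

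Of the 3 basement membrane collagens tested, 1 rose in Day2 against Day1, where 28.3% of all genes rose. In antimiR against Day2, 1 fell, where 24.8% of all genes fell. Both calls were of Col4a5. Col4a1 and Col4a2 encode the chains of the type IV network that most basement membranes hold. Col4a1 had log2 normalized intensities of 9.70, 9.60 and 9.60 in antimiR, 9.85, 9.89 and 9.90 in Day2, 10.41, 9.75 and 9.72 in mimic, and 9.66, 9.84 and 9.74 in Day1. Col4a2 had 9.05, 8.79 and 8.60 in antimiR, 9.13, 8.86 and 8.96 in Day2, 9.67, 8.74 and 8.80 in mimic, and 8.99, 8.83 and 8.97 in Day1. For both genes mimic replicate 1 was the highest of all 12 arrays. The Day2 against Day1 difference was 0.13 for Col4a1 (SE 0.15, limma adjusted p = 0.474) and 0.05 for Col4a2 (SE 0.20, adjusted p = 0.844). All antimiR values of Col4a1 lay below all Day2 values (−0.25, SE 0.15, adjusted p = 0.19). That difference passed without mimic replicate 1 (adjusted p = 0.016), with only the arrays compared (0.0333), with array weights (0.00393) and with cyclic loess (−0.39, adjusted p = 0.0461). It turned to 0.27 (adjusted p = 0.791) with median scaling.

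Col4a5 encodes a chain that is known from basement membranes of kidney and of smooth muscle. It had log2 normalized intensities of 5.03, 4.65 and 5.05 in antimiR, 6.05, 5.87 and 6.05 in Day2, 4.68, 4.90 and 4.48 in mimic, and 4.55, 4.66 and 4.38 in Day1. Day2 stood above every other array, and no Day1 array was above background. Col4a5 was at least 2.49-fold higher in Day2 than in Day1 (limma adjusted p = 1.73e-06) and 2.12-fold lower in antimiR than in Day2 (−1.08, SE 0.15, adjusted p = 3.57e-05). An "at least" fold sets the bright group's mean against a dim group in which each value stands no lower than its array's dimmest probe above background. The adjusted p beside such a fold is that of the log2 difference without this limit. In the authors' processed values the differences were 0.53 and −0.41, and with no background correction the first was 0.82, all of which passed. For antimiR against Day1 it had 0.38 (adjusted p = 0.0802, and 0.0424 without antimiR replicate 2).

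Of the other 10 tested collagens, 5 rose and 2 fell in Day2 against Day1, where 28.3% of all genes rose and 28.9% fell, and the median difference was 0.27. Of the 10, 1 rose and 4 fell in antimiR against Day2, where 26.4% of all genes rose and 24.8% fell, with a median of 0.07. The short-chain type VIII genes, Col8a1 and Col8a2, encode chains of a hexagonal network best known under the corneal endothelium. Col8a1 had log2 normalized intensities of 8.06, 7.58 and 7.46 in antimiR, 9.74, 9.51 and 9.64 in Day2, 8.60, 8.27 and 8.10 in mimic, and 7.96, 8.13 and 8.18 in Day1. Day2 stood above every other array, and antimiR and Day1 overlapped. Col8a1 was 2.89-fold higher in Day2 than in Day1 (1.53, SE 0.16, limma adjusted p = 2.53e-06, and 0.075 with median scaling) and 3.8-fold lower in antimiR than in Day2 (−1.93, SE 0.16, adjusted p = 3.47e-07). Its second probe rose by 1.36 and fell by 1.54 in these comparisons. For antimiR against Day1 Col8a1 had −0.39 (adjusted p = 0.0943), which passed without mimic replicate 1 (adjusted p = 0.0278) or antimiR replicate 1 (−0.57, adjusted p = 0.0432).

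Col8a2 had 6.57, 5.93 and 5.92 in antimiR, 5.83, 5.75 and 5.98 in Day2, 4.77, 6.12 and 5.99 in mimic, and 4.65, 4.63 and 4.47 in Day1. The antimiR and Day2 values overlapped and both lay above Day1, where 1 of 3 arrays was above background. Col8a2 was 2.42-fold higher in Day2 than in Day1 (1.27, SE 0.29, limma adjusted p = 0.00165) and 2.95-fold higher in antimiR than in Day1 (1.56, SE 0.29, adjusted p = 0.00522). For antimiR against Day2 it had 0.29 (SE 0.29, adjusted p = 0.436). In the authors' processed values the differences from Day1 were 0.59 in antimiR and 0.45 in Day2, and with no background correction the antimiR against Day1 difference was 0.89, all of which passed.

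Col22a1 and Col14a1 encode fibril-associated collagens with interrupted triple helices, and type XXII is known from the junction of muscle and tendon. Col22a1 had log2 normalized intensities of 4.58, 4.58 and 4.40 in antimiR, 5.59, 5.91 and 5.62 in Day2, 4.55, 4.56 and 4.38 in mimic, and 4.35, 4.29 and 4.27 in Day1. It was above background on the 3 Day2 arrays and on none of the other 9. Col22a1 was at least 2.04-fold higher in Day2 than in Day1 (limma adjusted p = 3.42e-07) and at least 2.1-fold lower in antimiR than in Day2 (adjusted p = 2.1e-06). In the authors' processed values its differences were 0.51 and −0.41, and with no background correction the first was 0.81, all of which passed.

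Col14a1 had 5.05, 4.32 and 4.40 in antimiR, 5.05, 5.34 and 5.45 in Day2, 4.20, 4.42 and 4.48 in mimic, and 4.19, 4.23 and 4.24 in Day1. Only the Day2 arrays and antimiR replicate 1 were above background, and that antimiR array reached the lowest Day2 value. Col14a1 was at least 1.52-fold higher in Day2 than in Day1 (limma adjusted p = 0.000161) and fell by 0.69 in antimiR against Day2 (SE 0.18, adjusted p = 0.0049). In the authors' processed values the Day2 against Day1 difference of Col14a1 was 0.43 and passed. Col16a1, also fibril-associated, had a median of 7.58 in antimiR and passed in none of the 4 comparisons, with 0.16 for Day2 against Day1 (adjusted p = 0.262).

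Col18a1, whose carboxy-terminal fragment is endostatin, and Col7a1, the collagen of anchoring fibrils in skin, were the only members that fell in Day2 against Day1. Col18a1 had log2 normalized intensities of 11.83, 11.87 and 11.59 in antimiR, 10.74, 10.87 and 11.02 in Day2, 11.78, 11.58 and 11.57 in mimic, and 11.55, 11.41 and 11.28 in Day1. Day2 stood below all other arrays, and antimiR and mimic both lay above Day1. Col18a1 fell by 0.54 in Day2 against Day1 (SE 0.11, limma adjusted p = 0.000918, and 0.295 with median scaling) and rose by 0.89 in antimiR against Day2 (SE 0.11, adjusted p = 1.63e-05). Its second probe gave −0.96 and 1.36. For antimiR against Day1 Col18a1 rose by 0.35 (adjusted p = 0.0383), a call lost without Day1 replicate 2 (adjusted p = 0.105), Day1 replicate 3 (0.152), Day2 replicate 2 (0.0542), antimiR replicate 1 (0.131) or antimiR replicate 2 (0.121). It was also lost with median (0.907) or 75th percentile scaling (0.268), with no detection filter (0.0702) and with no intensity trend (0.0569).

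Col7a1 had 5.80, 5.76 and 6.15 in antimiR, 5.63, 5.79 and 5.85 in Day2, 6.96, 5.96 and 5.84 in mimic, and 6.88, 7.02 and 7.0 in Day1. All antimiR and Day2 arrays and mimic replicates 2 and 3 lay below Day1, and mimic replicate 1 lay within it. Col7a1 was 2.32-fold lower in Day2 than in Day1 (−1.21, SE 0.23, limma adjusted p = 0.000519) and 2.08-fold lower in antimiR than in Day1 (−1.06, SE 0.23, adjusted p = 0.00957, and 0.592 with median scaling). For antimiR against Day2 it had 0.15 (adjusted p = 0.619).

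Col17a1 and Col25a1 are transmembrane collagens. Col17a1, known from hemidesmosomes of skin, had log2 normalized intensities of 4.69, 4.82 and 4.73 in antimiR, 5.16, 5.48 and 5.19 in Day2, 4.93, 4.96 and 4.90 in mimic, and 4.79, 5.19 and 4.72 in Day1. Day2 lay above antimiR with no overlap and overlapped Day1. Col17a1 rose by 0.38 in Day2 against Day1 (SE 0.14, limma adjusted p = 0.0333) and fell by 0.53 in antimiR against Day2 (SE 0.14, adjusted p = 0.00608). The first call was lost without Day1 replicate 1 (adjusted p = 0.11), Day1 replicate 3 (0.137) or Day2 replicate 2 (0.141). It was also lost with median (0.363) or 75th percentile scaling (0.145), no detection filter (0.0686), averaged probes (0.0931) and only the arrays compared (0.0601). The second was lost with the probes of the gene averaged (0.0516) and with median scaling (0.249). Col25a1, which mouse studies place at the contact of motor axon and muscle, had −0.40 in Day2 against Day1 (SE 0.17, adjusted p = 0.0542), a value that passed without Day1 replicate 2 (adjusted p = 0.0491), Day2 replicate 3 (−0.54, adjusted p = 0.0182), mimic replicate 1 (0.0415) or mimic replicate 3 (0.0333). Col26a1 had 0.04 (adjusted p = 0.85).

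**Figure D3:**
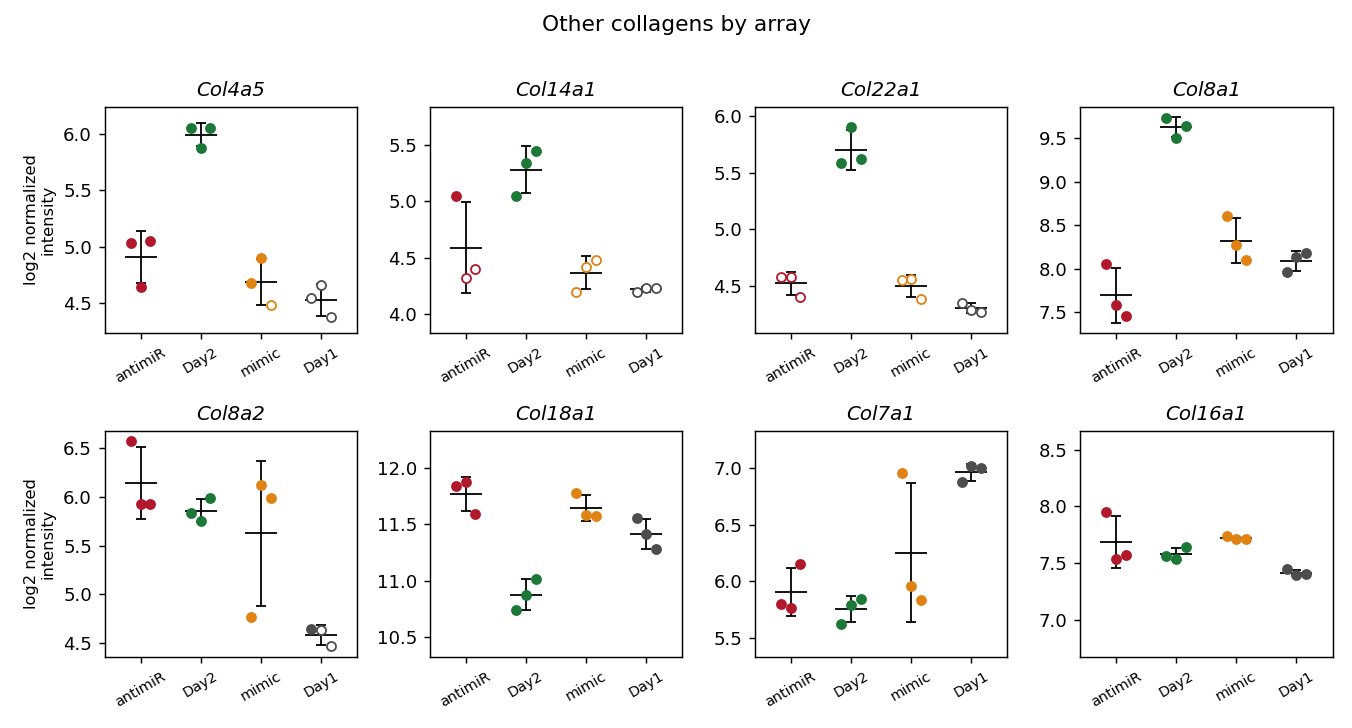
Log2 normalized intensity of 8 further collagen genes on each array, with the mean and SD of 3 arrays as lines and open points for arrays where the probe was not above background. Col22a1 is above background on the 3 Day2 arrays alone, and Day2 is the highest group for Col4a5 and Col8a1 and the lowest for Col18a1.

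With the miR-206 mimic for 24 h, Col3a1, Col6a1 and Col8a2 were higher than in Day1. The log2 differences were 1.36 for Col3a1 (SE 0.37, limma adjusted p = 0.0436), 1.63 for Col6a1 (SE 0.42, adjusted p = 0.039) and 1.04 for Col8a2 (SE 0.29, adjusted p = 0.0436). Just short of the threshold stood Col1a1 at 1.15 (SE 0.34, adjusted p = 0.0505), Col6a2 at 1.43 (SE 0.45, adjusted p = 0.0603) and Col7a1 at −0.71 (SE 0.23, adjusted p = 0.0679). In each of these 6 genes mimic replicate 1 was the mimic array nearest to Day1, and mimic replicates 2 and 3 lay outside the Day1 values. Col1a1 passed when genes had to be above background on all 3 arrays of a group (adjusted p = 0.0492). Col3a1, Col6a1 and Col8a2 were also higher in antimiR than in Day1, by 1.79, 2.22 and 1.56. The part of miR-206 in these differences was not tested.

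The calls in mimic against Day1 rested on which arrays were fitted and on the processing. Of 24 alternatives, 15 lost the call of Col3a1, 14 that of Col6a1 and 18 that of Col8a2. For Col8a2 these included the authors' processed values, no background correction and cyclic loess. Without mimic replicate 1, 6 members rose and 1 fell, where 18.2% of all genes rose and 19.5% fell. In that fit Col6a1 had 2.34 (limma adjusted p = 6.25e-08), Col6a2 2.16 (adjusted p = 1.03e-06), Col3a1 1.92 (adjusted p = 5e-06), Col1a1 1.63 (adjusted p = 1.6e-05), Col8a2 1.47 (adjusted p = 8.6e-06), Col5a2 0.60 (adjusted p = 0.00837) and Col7a1 −1.07 (adjusted p = 2.68e-05). The median over the 25 members was 0.16 there, and among those that did not pass Col5a1 had 0.02 (adjusted p = 0.921), Col4a1 −0.01 (adjusted p = 0.954) and Col8a1 0.09 (adjusted p = 0.673). When any 1 of the 3 Day1 arrays, mimic replicate 2 or 3, Day2 replicate 2 or 3, or antimiR replicate 2 or 3 was left out, 0 members rose by limma, and without Day2 replicate 1 there was 1. Calls over all genes were not counted in these fits, so the drop cannot be set against a share of all genes.

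**Figure D4:**
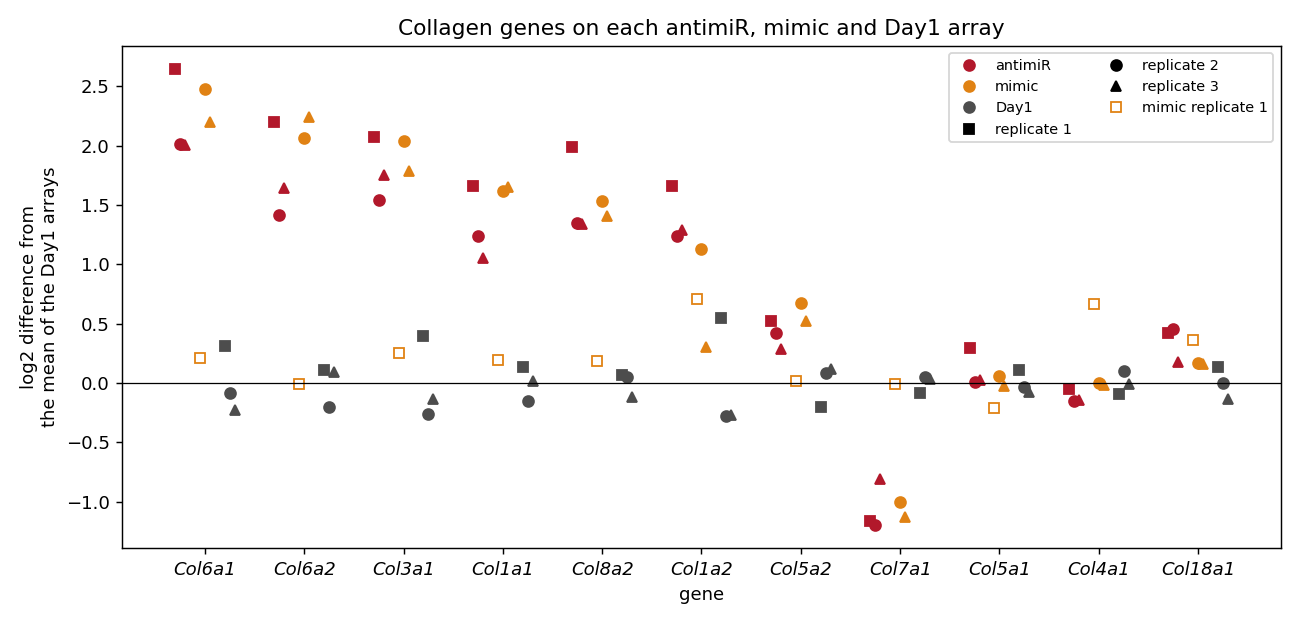
Log2 difference of 11 collagen genes from the mean of the Day1 arrays, on each antimiR, mimic and Day1 array, with the marker shape giving the replicate and an open orange square for mimic replicate 1. For Col6a1, Col6a2, Col3a1, Col1a1, Col8a2 and Col7a1 the open square lies near the Day1 points, away from the other mimic points.

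Of 19 tested genes that modify and fold procollagen, 9 rose and 2 fell in Day2 against Day1 by limma, where 28.3% of all genes rose and 28.9% fell. In antimiR against Day2, 4 rose and 9 fell (26.4% and 24.8% of all genes), and in antimiR against Day1 4 rose and 1 fell (12.9% and 9.86%). In mimic against Day1 0 rose and 1 fell (4.42% and 4.13%). There 9 of the 19 had an unadjusted p under 0.05, as had 3155 of the 10653 genes. The median log2 differences of the 19 were 0.22, −0.30, 0.24 and 0.21 in that order of comparisons. Tmem38b, an ion channel of the endoplasmic reticulum whose loss disturbs collagen folding, had log2 normalized intensities of 7.97, 7.79 and 7.76 in antimiR, 10.52, 10.41 and 10.38 in Day2, 7.35, 8.13 and 7.93 in mimic, and 7.48, 7.46 and 7.38 in Day1. Day2 stood above all other arrays. Tmem38b was 8-fold higher in Day2 than in Day1 (SE 0.16 in log2, adjusted p = 3.22e-09) and 6.05-fold lower in antimiR than in Day2 (adjusted p = 1.59e-08).

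P4ha1 and P4ha2, catalytic subunits of prolyl 4-hydroxylase, rose by 1.47 (SE 0.22, limma adjusted p = 6.87e-05) and 1.14 (SE 0.10, adjusted p = 6.33e-07) in Day2 against Day1. In antimiR against Day2 they fell by 0.90 (adjusted p = 0.00398) and 1.14 (adjusted p = 7.28e-07). Colgalt1, which adds galactose to hydroxylysine, was the gene that fell in mimic against Day1, by 0.45 (SE 0.12, adjusted p = 0.04), and in antimiR against Day1, by 0.42 (adjusted p = 0.0236). Without mimic replicate 1, 9 of these 19 genes rose and 1 fell in mimic against Day1, where 18.2% of all genes rose and 19.5% fell.

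Of 7 tested genes for propeptide cleavage and cross-linking, 2 rose and 1 fell in Day2 against Day1, where 28.3% of all genes rose and 28.9% fell. In antimiR against Day2, 3 rose and 1 fell (26.4% and 24.8% of all genes), in antimiR against Day1 3 rose and 0 fell (12.9% and 9.86%), and in mimic against Day1 3 rose and 0 fell (4.42% and 4.13%). Their medians were 0.10, 0.08, 0.03 and 0.05. Without mimic replicate 1, 3 of the 7 rose and 1 fell in mimic against Day1, where 18.2% of all genes rose and 19.5% fell. Lox, the lysyl oxidase that starts collagen cross-links, had log2 normalized intensities of 10.90, 10.82 and 10.81 in antimiR, 9.80, 9.82 and 9.99 in Day2, 10.44, 11.07 and 11.05 in mimic, and 9.73, 9.64 and 9.63 in Day1. Every antimiR and mimic array lay above every Day2 and Day1 array. Lox rose by 0.98 in antimiR against Day2 (SE 0.14, limma adjusted p = 5.82e-05), by 1.18 in antimiR against Day1 (adjusted p = 0.000652) and by 1.19 in mimic against Day1 (adjusted p = 0.00159). Its relative Loxl1 rose by 1.97 in Day2 against Day1 (SE 0.18, adjusted p = 7.86e-07) and fell by 1.04 in antimiR against Day2 (adjusted p = 0.00034).

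Pcolce2, an enhancer of the protease that removes the carboxy-terminal propeptide, had 10.02, 10.35 and 10.40 in antimiR, 7.40, 7.65 and 7.62 in Day2, 10.55, 10.17 and 9.91 in mimic, and 10.43, 10.34 and 10.43 in Day1, in log2 normalized intensity. Day2 stood below all other arrays. Pcolce2 fell by 2.84 in Day2 against Day1 (SE 0.15, limma adjusted p = 2.89e-09) and rose by 2.70 in antimiR against Day2 (SE 0.15, adjusted p = 5.62e-09).

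Of 5 tested collagen receptors, 3 rose in Day2 against Day1 (28.3% of all genes) and 3 fell in antimiR against Day2 (24.8%), while in antimiR against Day1 2 rose (12.9%) and 1 fell (9.86%). Their medians were 0.72, −0.55 and 0.40. Itga11, the alpha 11 subunit of a collagen-binding integrin, had log2 normalized intensities of 7.33, 6.41 and 6.26 in antimiR, 8.79, 8.93 and 9.02 in Day2, 4.94, 7.02 and 6.79 in mimic, and 5.43, 5.36 and 5.04 in Day1. Its groups were ordered as those of Col6a1, with mimic replicate 1 below Day1. Itga11 rose by 3.64 in Day2 against Day1 (SE 0.42, limma adjusted p = 6.49e-06) and fell by 2.25 in antimiR against Day2 (SE 0.42, adjusted p = 0.000539). Ddr2, a receptor tyrosine kinase that binds fibrillar collagen, fell by 0.60 in antimiR against Day2 (adjusted p = 0.0118) and by 0.68 in antimiR against Day1 (adjusted p = 0.0183). In mimic against Day1, 0 of the 5 passed by limma and 2 had an unadjusted p under 0.05, as had 3155 of the 10653 genes. Without mimic replicate 1, 2 of the 5 rose and 0 fell in that comparison, where 18.2% of all genes rose and 19.5% fell.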

How the data were processed

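RNA of 12 C2C12 samples was measured on 12 bead arrays. The authors deposited a raw intensity per probe on a linear scale, with no background step recorded. Beside it stands a detection score that the deposited table heads as a p-value. The score rises with brightness, so the detection p was taken as 1 minus the score. A processed table deposited by the authors is on a log2 scale and was made with lumi per the submitters' processing notes. How its background was treated is not stated. Judged by rank order, scanner Day2 replicates 2 and 3 match each other's column of that table.

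Intensities were background-corrected in limma 3.58.1 (R 4.3.3) by normexp, with an offset of 16 and negative controls inferred from the detection p, then quantile-normalized and taken to log2. Of the 45281 probes, 34885 had 1 gene symbol, 18 several and 10378 none. A probe was kept with a detection p under 0.05 on at least 3 arrays, and the brightest kept probe stood for its gene. One limma model of 4 group means with an intensity trend was fitted to 10653 genes, two-sided, with Benjamini-Hochberg adjustment over all of them and a threshold of 0.05. Each gene's variance is pooled over the groups, so a wide group enlarges the SE of comparisons without it. Precision is limited by having 3 arrays in each group.

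The members and the gene lists were chosen with earlier results of these data known. Every tested collagen could be named, with its values on each array where it passed a test, and of each other list the 3 largest changes past the threshold in a comparison.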

Additional observations from a re-analysis of the deposited data

How the results depend on the processing

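Each collagen result was recomputed under up to 24 alternatives, 12 of which left out 1 array. For the marker, enzyme and receptor lists only the mimic against Day1 counts without mimic replicate 1 were recomputed. How far the calls of their single genes depend on the processing was not tested. Of the 37 collagen results past the threshold, 18 kept their call throughout, 19 lost it in at least 1 alternative and 0 changed direction. Of the 63 others, 15 passed in at least 1 alternative. All calls kept throughout came from Day2 against Day1 (9 of 15), antimiR against Day2 (5 of 11) and antimiR against Day1 (4 of 8), with 0 of 3 in mimic against Day1. The causes of these shifts were not tested. The counts of members higher and lower in Day2 against Day1, 13 and 2, became 8 and 1 with median scaling. The 3 members higher in mimic than in Day1 became 0 with median scaling, with no detection filter and with only the arrays compared, 1 with 75th percentile scaling and 8 with array weights, which also gave 1 lower member. Over all genes, 471 were higher in mimic than in Day1, and this count became 9 with median scaling, 105 with no detection filter (of 19057 tested), 2 with only the arrays compared, 124 with 75th percentile scaling and 2427 with array weights. In antimiR against Day2 the 2 higher members became 1 with no detection filter, and the 9 lower ones became 4 with median scaling. Over all genes the higher count went from 2814 to 2577 (of 19057 tested) and the lower one from 2647 to 630. In antimiR against Day1 the 1 lower member became 0 with median scaling and 2 with array weights or with only the arrays compared. Over all genes 1050 were lower there, and this count became 41 with median scaling, 2057 with array weights and 1791 with only the arrays compared. Same-numbered arrays of different groups deviated from their group means with correlations of −0.14 to 0.17, and 3 of 12 were above 0.1, so the numbers were not taken to pair the samples. With the replicate block, members higher in mimic than in Day1 numbered 0, those higher in antimiR than in Day2 numbered 1, and those higher in antimiR than in Day1 numbered 6. The calls lost with the block were those of Col3a1, Col6a1 and Col8a2 in mimic against Day1, Col1a2 in antimiR against Day2 and Col18a1 in antimiR against Day1. The block moved no other count. Over all genes it left 26 higher in mimic than in Day1, 2657 higher in antimiR than in Day2 and 1038 higher in antimiR than in Day1. With 1 array left out, higher members numbered 0 to 6 in mimic against Day1, 1 to 2 in antimiR against Day2, 4 to 8 in antimiR against Day1 and 11 to 14 in Day2 against Day1. Lower members numbered 0 to 1 in mimic against Day1, 6 to 12 in antimiR against Day2, 1 to 2 in antimiR against Day1 and 2 to 3 in Day2 against Day1. The 4 in antimiR against Day1 arose without Day1 replicate 2, Day1 replicate 3 or antimiR replicate 1. With 1 array left out, calls over all genes were counted only for mimic against Day1 without mimic replicate 1. Col14a1, Col22a1, Col4a5 and Col8a2 lie close to background, and their differences were smaller in the authors' processed values.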
